A study of Mus musculus with 4 samples.

Results

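The 9 genes described here are complement components and receptors: the 3 chains of C1q (C1qa, C1qb and C1qc), C2, C3, C4b, C7, the C1 inhibitor Serping1 and the C3a receptor C3ar1. They were listed by symbol among the 32285 genes of the count files, and each was found once. Complement is a cascade of secreted proteins that tags and lyses targets. In its classical arm, C1q binds antibody or cell debris, its partner proteases C1r and C1s cleave C4 and C2, and the product cleaves C3, whose fragment C3a acts on C3ar1 while later components, C7 among them, build a membrane pore. Serping1 blocks C1r and C1s. Most of these proteins reach plasma from the liver, but C1q is made largely by macrophages and dendritic cells, and adipose stromal cells are a known local source of C3.

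Transcripts were counted cell by cell in the stromal vascular fraction of brown adipose tissue (BAT) from mice, that is, the cells left once adipocytes float off. The 4 libraries were WT (age 10 weeks), db/db 8w and db/db 16w (ages 8 and 16 weeks) and HFD, mice given a high-fat diet. The labels give C57BL6/J as the strain of all 4, whereas the study's methods name the db/db mice B6.BKS(D)-Leprdb/J. Strain background may therefore differ between the db/db libraries and the others. The HFD label gives an age of 10 weeks, whereas the study's methods start the diet at that age and continue it for 10 weeks. The db/db mice carry a mutation of the leptin receptor in every cell, so hyperphagia, obesity and diabetes come together, and they came from another supplier than the WT mice. Each group was 1 library made from the pooled cells of several mice, so mice cannot be told apart and no test across samples exists. The intervals given with values are 95% intervals of counting error only, and all ratios to WT share the same WT library.

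After quality filters 5462 to 11648 cells remained in each library, with a median of 2733 to 6218.5 UMIs per cell (unique molecular identifiers, 1 per captured transcript). The db/db 16w library stood apart from the others. Xist, the RNA of the inactive X chromosome, was at 207 CPM (UMIs of a gene per 1000000 UMIs) there and at 0.187 to 0.688 CPM elsewhere, and Y-linked genes were at 17.7 CPM against 164 to 188, although the study states male mice. Sex, supplier, age and library preparation can therefore not be told apart from the db/db 16w label, and every result is given for db/db 8w and HFD as well. Signs of RNA quality differed too. The median mitochondrial share of kept cells was 0.799% in the db/db 16w library, 10.5% in HFD, 5.94% at 8w and 4.29% for WT. The HFD library also stood apart, since 31.3% of its barcodes passed the filters against 63.6% to 89.5% in the others. The part of these differences in the ratios to WT was not tested. Pairs of libraries shared 16 to 97 cell barcodes, at most 0.629% of the smaller library.

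Macrophages and stromal cells were gated on raw UMIs of markers that include no complement gene. A cell took a gate with at least 3 UMIs over its own list (for macrophages genes such as Adgre1, Csf1r, Cd68, Fcgr1 and Mrc1, for stroma Pdgfra, Dcn, Lum and 3 collagen genes) and at most 1 UMI over each of the other lists. Of macrophages, this UMI gate held 64 in WT, 552 in HFD and, in db/db, 801 at 8w and 2223 at 16w. Of stromal cells, it held 3475 in WT, 795 in HFD and, in db/db, 5408 at 8w and 935 at 16w. Barcodes with both marker lists were common in 3 libraries: 1729 in WT, 3016 in 8w db/db and 1399 in HFD against 165 in 16w db/db. A second gate, chosen after this was seen, used the share of a cell's UMIs that fell on each list. It required a minimum share of the own list and a maximum share of each other list. Of macrophages, this share gate held 1209 in WT, 1543 in HFD and, in db/db, 2693 at 8w and 2073 at 16w, and its values stand beside those of the UMI gate. Genes left out of gating bore the names out: Lyz2, Ctss, Tyrobp and Cd14 summed to 7986 to 12652 CPM in macrophages and 80.0 to 469 in stroma, and Gsn, Serpinf1, Pcolce and Mfap5 to 292 to 591 and 13449 to 22953 CPM.

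The 9 genes divided by source. C1qa, C1qb, C1qc and C3ar1 were macrophage transcripts in all 4 libraries, whereas C2, C3, C7 and Serping1 were stromal transcripts, and C4b was found in both sources. For the summed C1q chains the log2 ratio of macrophages to stromal cells was 7.0 (6.91 to 7.09) in WT, 5.17 (5.05 to 5.29) in HFD and, in db/db, 5.09 (5.04 to 5.14) at 8w and 7.46 (7.1 to 7.84) at 16w; with the share gate it was 7.33 in WT, 5.19 in HFD and, in db/db, 5.95 at 8w and 6.04 at 16w. For C3ar1 it was 6.85 (6.28 to 7.42) in WT, 4.97 (4.57 to 5.39) in HFD and, in db/db, 4.46 (4.23 to 4.70) at 8w and 7.56 (5.70 to 10.60) at 16w. The 4 macrophage genes were thus higher in macrophages in each library with either gate, by a log2 ratio of 4.46 or more. C3 pointed the other way, with log2 ratios of -4.73 (-5.18 to -4.32) in WT, -6.22 (-6.60 to -5.86) in HFD and, in db/db, -5.38 (-5.65 to -5.13) at 8w and -8.24 (-8.74 to -7.78) at 16w, and so did Serping1, with -5.83 (-6.70 to -5.08) in WT, -6.73 (-7.13 to -6.36) in HFD and, in db/db, -6.97 (-7.41 to -6.56) at 8w and -11.10 (-12.23 to -10.18) at 16w. C7 was held by 1 macrophage UMI in WT, 1 in HFD and, in db/db, 1 at 8w and 0 at 16w, against stromal UMIs of 2555 in WT, 96 in HFD and, in db/db, 542 at 8w and 15 at 16w. C4b was lower in macrophages than in stroma in 3 libraries, at -1.85 (-2.34 to -1.40) in WT, -1.37 (-1.61 to -1.13) in 16w db/db and -4.83 (-5.35 to -4.35) in HFD. It was near the stromal level in db/db 8w, at 0.13 (0.01 to 0.26), and at -0.15 (-0.22 to -0.07) with the share gate. Counted as genes that differed by 2-fold or more on the log2(CPM + 10) scale, among genes of at least 20 CPM in either source, 4 members were higher in macrophages in each library, where 16.5%, 14.6%, 14.7% and 13.3% of all genes tested were (WT, 8w, 16w, HFD). Higher in stroma were 5 of 9 members tested in WT, 5 of 9 in HFD and, in db/db, 4 of 9 at 8w and 4 of 8 at 16w, beside 21.6%, 19.1%, 22.2% and 17.7% of all genes (WT, 8w, 16w, HFD).

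**Figure D1:**
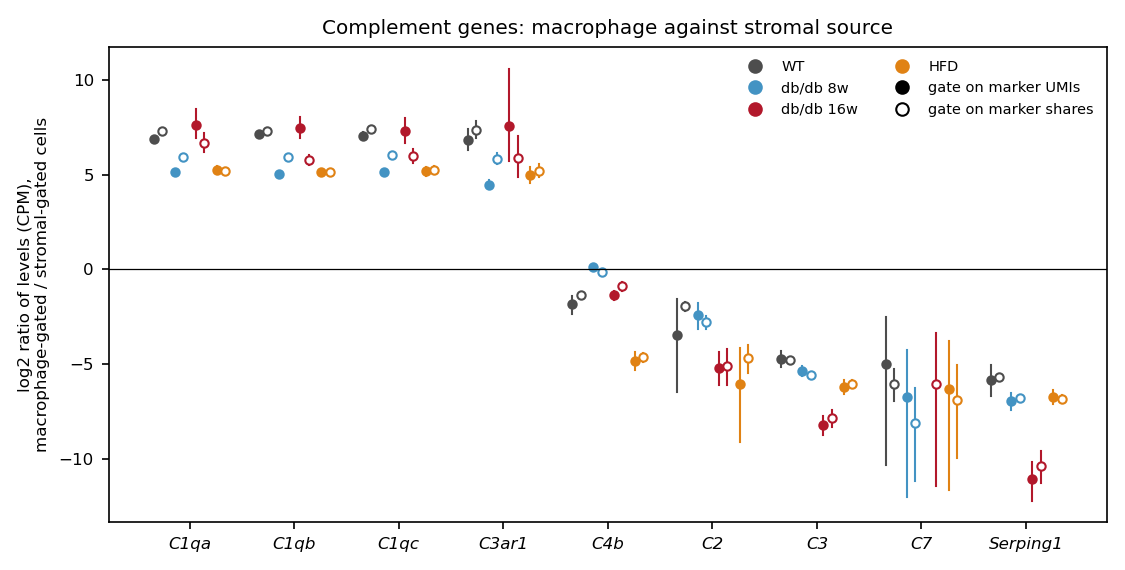
Log2 ratio of levels (CPM) in macrophage-gated over stromal-gated cells for each of the 9 genes, by library (colour); filled circles are the UMI gate, open circles the share gate, and bars 95% intervals of counting error. C1qa, C1qb, C1qc and C3ar1 lie above 4 in every library, C2, C3, C7 and Serping1 lie below 0, and C4b lies closest to 0, from -4.83 in HFD to 0.13 in 8w db/db with the UMI gate; C7 has no UMI-gate point in 16w db/db, where macrophages held no C7 UMI.

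The 3 C1q genes sit side by side on the minus strand of chromosome 4 (GRCm38): C1qb (ENSMUSG00000036905, chr4:136880129-136886187), C1qc (ENSMUSG00000036896, chr4:136889804-136893065) and C1qa (ENSMUSG00000036887, chr4:136895917-136898803), with 3616 and 2851 bases between neighbours. Their protein chains assemble in equal numbers into the C1q molecule. In macrophages of the UMI gate, C1qa was at 3567 CPM in WT, 1699 in HFD and, in db/db, 2589.7 at 8w and 1002 at 16w. C1qb was at 3314 CPM in WT, 2412 in HFD and, in db/db, 2516 at 8w and 1649 at 16w. C1qc was at 2045 CPM in WT, 1403 in HFD and, in db/db, 1658 at 8w and 1041 at 16w. The widest upper 95% limit lay 8.06% above its level, in the 64 WT macrophages. All 3 chains were highest in WT and lowest in db/db 16w, with db/db 8w and HFD between. The log2 ratio of the summed chains to WT was -0.69 (-0.75 to -0.64) in HFD and, in db/db, -0.40 (-0.46 to -0.34) at 8w and -1.27 (-1.33 to -1.22) at 16w. With the share gate, which held 1209 WT macrophages, these ratios were -0.89 (HFD), -0.57 (8w) and -1.30 (16w). C1qa differed most in each library: its log2 ratios were -1.07 (HFD), -0.46 (8w) and -1.83 (16w) against WT, beside -0.46 (HFD), -0.40 (8w) and -1.01 (16w) for C1qb and -0.54 (HFD), -0.30 (8w) and -0.98 (16w) for C1qc. Between the db/db libraries, 16w over 8w, the ratios were -1.37 (-1.41 to -1.33), -0.61 (-0.64 to -0.58) and -0.67 (-0.71 to -0.63). When macrophages were required to hold no marker UMI of any other cell type, the summed ratios to WT became -0.071 (HFD), -0.012 (8w) and -0.72 (16w), on 13 WT macrophages. Single chains then turned above WT, C1qa at 0.15 (8w) and C1qc at 0.039 (HFD) and 0.0078 (8w). A mitochondrial limit of 10% left the HFD sum at -0.76. Other cells' check markers in the gated macrophages (UMI gate) summed, for the 4 stromal genes, to 591 CPM in WT, 300.4 in HFD and, in db/db, 462 at 8w and 292 at 16w. The 4 endothelial genes (Kdr, Flt1, Fabp4 and Ly6c1) summed to 121 CPM in WT, 1943 in HFD and, in db/db, 1502 at 8w and 1137 at 16w, and the 2 hemoglobin genes to 3.20 CPM in WT, 34.4 in HFD and, in db/db, 191 at 8w and 2472 at 16w. The study also lists Fabp4 as a gene of lipid-associated macrophages, so the endothelial sum need not come from endothelial cells. The part of these check markers in the C1q ratios was not tested.

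Among all members tested in macrophages, 0 of 7 were 2-fold or more higher than in WT in any obese library, where 11.8% (HFD), 6.08% (8w) and 19.6% (16w) of all genes were. Lower by 2-fold or more were 2 of 7 in 8w db/db (C3 and Serping1), 5 of 7 in 16w db/db (C1qa, C1qb, C3, C4b and Serping1) and 3 of 7 in HFD (C1qa, C3 and C4b), beside, in this order, 4.17%, 21.5% and 8.98% of all genes. Without the added 10 CPM, C3ar1 in HFD (430.3 against 214 CPM in WT) would pass as higher. Serping1 in HFD (18.0 against 44.7 CPM in WT) would then pass as lower. The median log2 ratio of the 7 members was -0.40 (8w), -1.82 (16w) and -0.97 (HFD), against 0.03, -0.09 and 0.12 over all genes tested. These counts and medians include C3 and Serping1, read as background below. At 8w they were the only 2 members lower, and the HFD median was the value of Serping1. With the share gate, C3 was at 147 CPM (139 to 156) in WT macrophages and at 92.3 CPM (53.7 to 148) in the 32 WT T cells, and Serping1 at 51.2 CPM (46.4 to 56.3) and 59.7 CPM (29.8 to 107). In the obese libraries C3 was at 2.80 to 29.9 CPM in macrophages and 2.37 to 36.4 CPM in endothelial cells. For these values the intervals of T cells (WT) or endothelial cells (obese libraries) reached those of macrophages. Serping1 of the obese libraries was at 0.846 to 17.2 CPM in macrophages, below endothelial cells, at 13.0 to 78.9 CPM. T cells there held 0 to 4 Serping1 UMIs, too few to compare. C3 and Serping1 of gated macrophages are therefore read as background of free RNA.

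**Figure D2:**
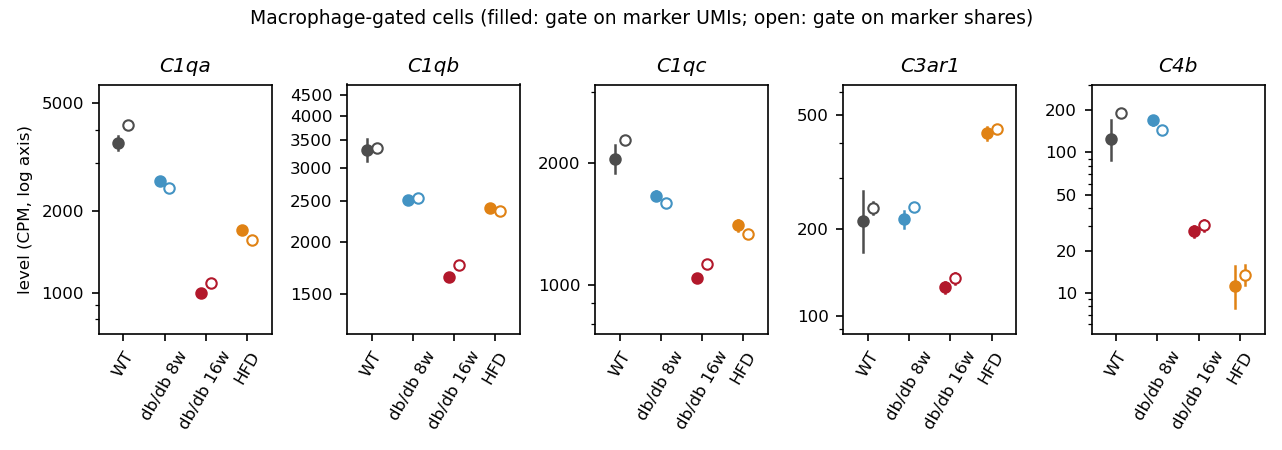
Levels in CPM (log axis, a scale for each gene) of the C1q chains, C3ar1 and C4b in macrophage-gated cells of the 4 libraries; filled circles are the UMI gate, open circles the share gate, bars 95% Poisson intervals. The C1q chains are highest in WT and lowest in 16w db/db, C3ar1 is highest in HFD, and C4b is highest in WT or db/db 8w, depending on the gate, and lowest in HFD.

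The make-up of the C1q transcripts shifted as well. Of all C1q UMIs in macrophages of the share gate, C1qa made up 42.4% in WT, 29.7% in HFD and, in db/db, 37.0% at 8w and 27.3% at 16w. C1qb made up 34.3% in WT, 45.0% in HFD and, in db/db, 38.8% at 8w and 44.3% at 16w. C1qc varied least, from 23.2% to 28.3%. C1qa was thus the leading chain in WT and C1qb the leading chain in the obese libraries, with exact 95% intervals of 42.1% to 42.8% for C1qa in WT and 27.0% to 27.7% in db/db 16w. In the UMI gate C1qa made up 40.0% in WT, 30.8% in HFD and, in db/db, 38.3% at 8w and 27.1% at 16w, so there C1qa led in WT and db/db 8w. These shares compare the same gene between libraries; the 3 chains may be captured unequally, and their levels are not compared with each other otherwise.

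The macrophages were then split by markers of perivascular, resident-type cells (Lyve1, Folr2, Cd163 and Cbr2, the Lyve1 side) and of lipid-associated cells (Trem2, Cd9, Gpnmb and Spp1, the Trem2 side), each taken with 2 or more UMIs of 1 list and none of the other. Within the share gate, cells of the Lyve1 side numbered 651 in WT, 23 in HFD and, in db/db, 895 at 8w and 108 at 16w. Cells of the Trem2 side numbered 18 in WT, 469 in HFD and, in db/db, 363 at 8w and 587 at 16w. On the Lyve1 side C1qa was at 4178 CPM in WT, 2702 in HFD and, in db/db, 3871 at 8w and 3797 at 16w. On the Trem2 side it was at 1346 CPM in WT, 1279.7 in HFD and, in db/db, 1036 at 8w and 702 at 16w. The Lyve1 side was higher in every library, by a log2 ratio of 1.63 (1.45 to 1.82) in WT, 1.08 (0.88 to 1.27) in HFD and, in db/db, 1.90 (1.85 to 1.96) at 8w and 2.44 (2.33 to 2.54) at 16w. C1qc differed by 1.07 in WT, 0.97 in HFD and, in db/db, 1.60 at 8w and 2.12 at 16w, and C1qb less, by 0.81 in WT, 0.40 in HFD and, in db/db, 1.02 at 8w and 1.24 at 16w. Within the Lyve1 side, the summed C1q chains lay near the WT level in both db/db libraries, at log2 ratios of -0.05 (-0.07 to -0.03) and 0.09 (0.03 to 0.14), and below it in HFD, at -0.37 (-0.48 to -0.26) on 23 cells. There C1qc was higher in db/db 16w than in WT, at 0.44 (0.34 to 0.53). Within the Trem2 side the ratios to the 18 WT cells were 0.04 (-0.06 to 0.15) in HFD and, in db/db, -0.35 (-0.45 to -0.24) at 8w and -0.58 (-0.69 to -0.48) at 16w. The difference of -1.30 over all db/db 16w macrophages was therefore larger than that within either side, and the Lyve1 side made up 651 of 1209 macrophages in WT but 108 of 2073 in db/db 16w. How far this mix accounts for the whole difference was not tested.

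The chain make-up also differed between the sides. The share of C1qa on the Lyve1 side was 42.3% in WT, 35.3% in HFD and, in db/db, 40.7% at 8w and 36.2% at 16w. On the Trem2 side it was 30.8% in WT, 28.4% in HFD and, in db/db, 30.2% at 8w and 24.0% at 16w. C1qb was the leading chain on the Trem2 side of every library, at 43.5% to 50.8%. The share of macrophages with C1q transcripts was compared after each cell was thinned to 1000 UMIs, since depth differed. All 3 chains were found in 72.1% of WT macrophages, 58.9% in 8w db/db, 38.7% in 16w db/db and 46.8% in HFD, and none in 4.57%, 10.0%, 23.8% and 14.2%. The share of thinned macrophages with C1qa was 89.0% in WT, 65.3% in HFD and, in db/db, 76.3% at 8w and 51.3% at 16w. Without thinning it was 95.6% in WT, 86.7% in HFD and, in db/db, 90.1% at 8w and 72.7% at 16w. In endothelial cells of this gate, thinned, C1qa was detected in 5.36% at 8w and 0.731% at 16w in db/db, and in 4.45% in HFD.

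**Figure D3:**
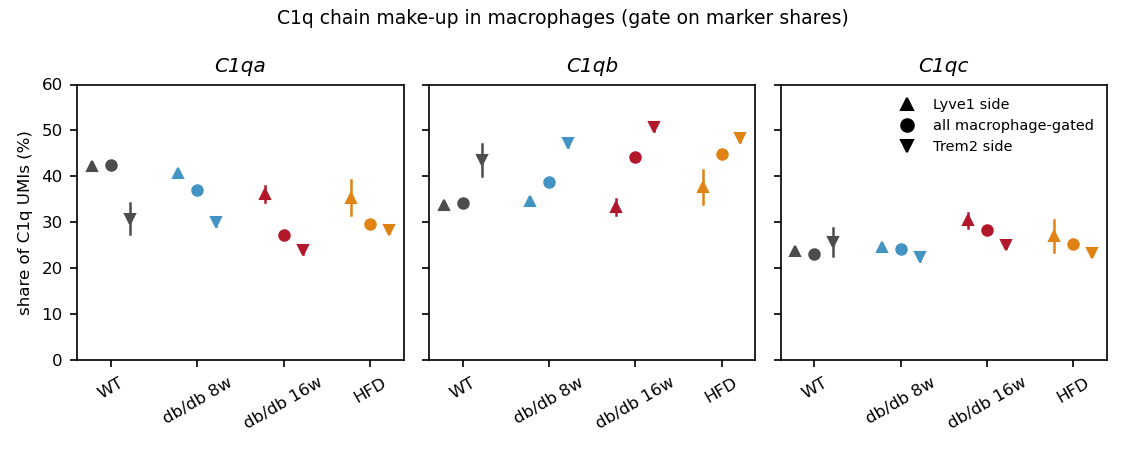
Share (%) of C1q UMIs that came from C1qa, C1qb and C1qc in macrophages of the share gate, by library; upward triangles are the Lyve1 side, circles all gated macrophages, downward triangles the Trem2 side, and bars exact 95% binomial intervals. C1qa lies higher on the Lyve1 side and C1qb on the Trem2 side in all 4 libraries. For these 2 chains all macrophages lie near the Lyve1 side in WT and nearer the Trem2 side in db/db 16w, whereas C1qc of db/db 16w macrophages, at 28.3%, lies nearer its Lyve1 side, at 30.4%, than its Trem2 side, at 25.2%.

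C3ar1, the receptor for the C3a fragment (ENSMUSG00000040552, chr6:122847138-122856161, minus strand), did not follow the C1q chains. In macrophages it was at 214 CPM (166 to 272) in WT and 216 CPM (201 to 232) in db/db 8w. It was at 125 CPM (120.1 to 131) in 16w db/db and 430.3 CPM (408 to 454) in HFD. The log2 ratios to WT were 1.01 (0.65 to 1.38) in HFD and, in db/db, 0.01 (-0.35 to 0.39) at 8w and -0.77 (-1.12 to -0.40) at 16w, and 0.91 (HFD), 0.02 (8w) and -0.81 (16w) with the share gate. HFD macrophages were thus the highest and db/db 16w macrophages the lowest with both gates, although the db/db 16w ratio was 0.063 when no marker UMI of another cell type was allowed. By contrast, WT and db/db 8w could not be separated, with an interval of their log2 ratio of -0.06 to 0.09 with the share gate. HFD was also highest and db/db 16w lowest on the Trem2 side, with 139 CPM in WT, 381 in HFD and, in db/db, 179 at 8w and 115 at 16w. The WT value there rested on 25 UMIs in 18 cells, so WT and db/db 16w could not be separated. On the Lyve1 side levels were 251 CPM in WT, 366 in HFD and, in db/db, 264 at 8w and 157 at 16w. The share of thinned macrophages with C3ar1 was 19.8% in WT, 32.1% in HFD and, in db/db, 20.6% at 8w and 13.7% at 16w. Over all cells of a library C3ar1 was at 47.9 CPM in WT, 198 in HFD and, in db/db, 98.3 at 8w and 89.2 at 16w, so the db/db 16w library as a whole held more C3ar1 than WT although the level in its macrophages was lower. Macrophages were 20.3% of WT cells and 35.5% of db/db 16w cells with the share gate.

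C4b, the mouse C4 gene (ENSMUSG00000073418, chr17:34728380-34743882, minus strand), was found in both sources. In macrophages of the share gate it was at 189.6 CPM in WT, 13.5 in HFD and, in db/db, 145 at 8w and 30.3 at 16w. The UMIs behind these levels were 1538 in WT, 152 in HFD and, in db/db, 2614 at 8w and 466 at 16w. The log2 ratios to WT were -3.81 (-4.06 to -3.57) in HFD and, in db/db, -0.39 (-0.48 to -0.30) at 8w and -2.65 (-2.80 to -2.49) at 16w. With the UMI gate the db/db 8w ratio was 0.44 (-0.03 to 0.95), on 39 WT UMIs, so its sign depends on the gate, whereas db/db 16w, at -2.18, and HFD, at -3.48, were lower with both. Of the C3 and C4b UMIs in macrophages, C4b made up 56.3% in WT, 36.9% in HFD and, in db/db, 82.9% at 8w and 91.6% at 16w. In stroma it made up 10.5% in WT, 18.3% in HFD and, in db/db, 9.95% at 8w and 7.99% at 16w. C3 of gated macrophages is read as background, so the macrophage share depends on free C3 RNA as well as on C4b. At 16w that share was above WT although the C4b level was below it. C4b was also uneven among macrophages. Cells with 3 or more C4b UMIs were 215 of 1209 in WT, 13 of 1543 in HFD and, in db/db, 377 of 2693 at 8w and 68 of 2073 at 16w. They held 70.6%, 75.4%, 64.6% and 30.3% of the macrophage C4b UMIs (WT, 8w, 16w, HFD).

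Macrophage C4b was higher on the Lyve1 side. There it was at 209 CPM (194 to 224) in WT, 82.6 CPM (33.2 to 170.2) in HFD and, in db/db, 329.9 CPM (312 to 348) at 8w and 348 CPM (283 to 422) at 16w. The HFD value came from 7 UMIs. On the Trem2 side it was at 33.4 CPM in WT, 6.26 in HFD and, in db/db, 15.2 at 8w and 3.27 at 16w. These levels rested on 6 UMIs in WT, 20 in HFD and, in db/db, 46 at 8w and 12 at 16w. The HFD level lay near that of HFD endothelial cells, 5.12 CPM (3.50 to 7.22). The Lyve1 side was higher in every library, by a log2 ratio of 2.64 (1.51 to 4.09) in WT, 3.72 (2.24 to 5.02) in HFD and, in db/db, 4.44 (4.01 to 4.90) at 8w and 6.73 (5.87 to 7.73) at 16w. Against WT, C4b of the Lyve1 side was higher in 8w db/db, at 0.66 (0.53 to 0.79), and in 16w db/db, at 0.74 (0.42 to 1.04), and lower in HFD, at -1.34 (-2.66 to -0.29). The Lyve1 cells of db/db 16w held 102 C4b UMIs and 0 C3 UMIs. The share of a library's C4b UMIs that lay in macrophages was 8.17% in WT, 4.51% in HFD and, in db/db, 33.9% at 8w and 57.4% at 16w, and in stroma 81.5% in WT, 58.0% in HFD and, in db/db, 46.2% at 8w and 23.9% at 16w. Of all UMIs, macrophages held 18.0% in WT, 34.6% in HFD and, in db/db, 33.8% at 8w and 57.9% at 16w. C4a, a close copy of C4b, held 0.237% to 0.490% of the UMIs of the pair.

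**Figure D4:**
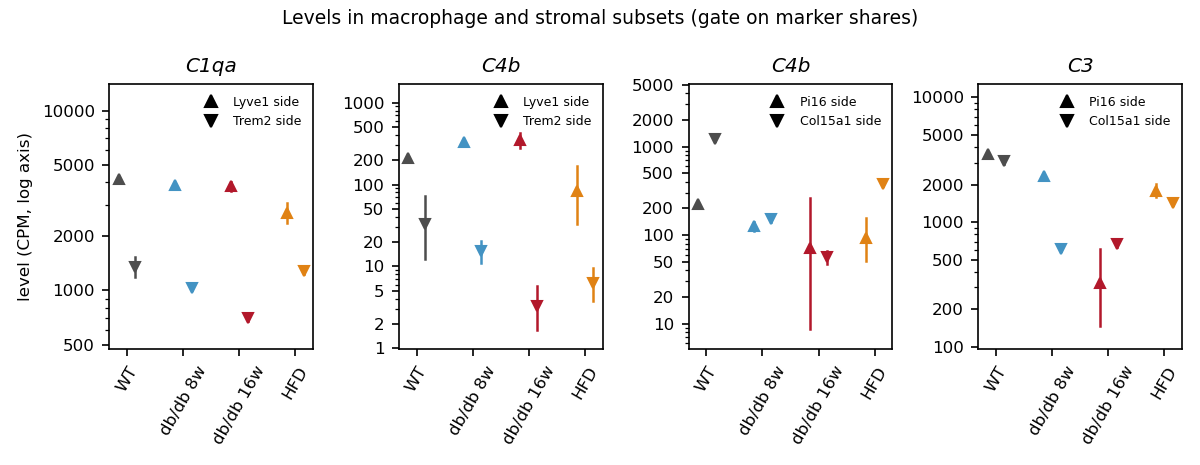
Levels in CPM (log axes, share gate) by library in cell subsets, with 95% Poisson intervals: C1qa and C4b on the Lyve1 side (upward triangles) and Trem2 side (downward) of macrophages, then C4b and C3 on the Pi16 side (upward) and Col15a1 side (downward) of stromal cells. C4b is higher on the Lyve1 side in all 4 libraries, and in stroma the WT Col15a1 side stands at 1230.0 CPM, above every other C4b level shown.

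The stromal members were lower in every obese library. C3 is the hub of the cascade (ENSMUSG00000024164, chr17:57203970-57228136, minus strand). In stromal cells of the UMI gate it was at 3992 CPM in WT, 1455 in HFD and, in db/db, 1435 at 8w and 683 at 16w. The UMIs behind it were 98717 in WT, 5618 in HFD and, in db/db, 26753 at 8w and 2049 at 16w. WT stood alone at the top, db/db 8w and HFD lay close together, and db/db 16w was lowest. The log2 ratios to WT were -1.46 (-1.5 to -1.42) in HFD and, in db/db, -1.48 (-1.5 to -1.46) at 8w and -2.55 (-2.61 to -2.48) at 16w, that is, 2.74-fold, 2.78-fold and 5.84-fold lower in the same order. Serping1, which inhibits the first proteases (ENSMUSG00000023224, chr2:84765387-84775444, minus strand), was at 2546 CPM in WT, 1915 in HFD and, in db/db, 1604 at 8w and 1180.1 at 16w. From the highest, the order was WT, HFD, 8w and 16w, with log2 ratios to WT of -0.41 (-0.45 to -0.38) in HFD and, in db/db, -0.67 (-0.69 to -0.65) at 8w and -1.11 (-1.16 to -1.06) at 16w. Stromal C4b was at 449 CPM in WT, 317 in HFD and, in db/db, 154 at 8w and 71.0 at 16w. It shared the order of Serping1, with ratios of -0.50 (-0.59 to -0.42) in HFD and, in db/db, -1.54 (-1.60 to -1.48) at 8w and -2.66 (-2.86 to -2.47) at 16w, and HFD lay closer to WT for C4b than for C3. The share of C4b in stromal C3 and C4b UMIs was 17.9% (17.0% to 18.8%) in HFD and 9.42% to 10.1% in the other 3 libraries.

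C7, a subunit of the membrane pore (ENSMUSG00000079105, chr15:4988762-5063740, minus strand), was at 103 CPM (99.4 to 107) in WT, 24.9 CPM (20.1 to 30.4) in HFD and, in db/db, 29.1 CPM (26.7 to 31.6) at 8w and 5.0 CPM (2.80 to 8.25) at 16w. It had the largest difference of the stromal members, with log2 ratios to WT of -2.06 (-2.36 to -1.76) in HFD and, in db/db, -1.83 (-1.97 to -1.69) at 8w and -4.37 (-5.21 to -3.64) at 16w; the db/db 16w value rested on 15 UMIs. C2, the protease that pairs with C4 (ENSMUSG00000024371, chr17:34862604-34898265, minus strand), was at 69.8 CPM (66.5 to 73.2) in WT, 41.4 CPM (35.3 to 48.4) in HFD and, in db/db, 29.2 CPM (26.8 to 31.7) at 8w and 30.7 CPM (24.7 to 37.6) at 16w. Its log2 ratios to WT were -0.75 (-1.0 to -0.52) in HFD and, in db/db, -1.26 (-1.40 to -1.12) at 8w and -1.19 (-1.51 to -0.88) at 16w, and the db/db libraries did not differ beyond counting error, at 0.07 (-0.26 to 0.39) for 16w over 8w. For C3, C4b, C7 and Serping1 together the ratios were -0.93 (-0.96 to -0.91) in HFD and, in db/db, -1.14 (-1.15 to -1.12) at 8w and -1.87 (-1.91 to -1.83) at 16w, and -0.92 (HFD), -1.15 (8w) and -2.00 (16w) with the share gate. The db/db 16w stroma was below the db/db 8w stroma, at a log2 ratio of -0.73 (-0.77 to -0.69).

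In stroma, on the log2(CPM + 10) scale, 4 of the 8 members tested were 2-fold or more lower in db/db 8w than in WT (C2, C3, C4b and C7), where 1.36% of all genes were. In the 16w library it was 5 of 7 (C1qa, C3, C4b, C7 and Serping1) beside 9.79%, and in HFD 2 of 8 (C3 and C7) beside 5.16%. Without the added 10 CPM, C2 (30.7 against 69.8 CPM in WT) and C1qb (9.33 against 23.7) at 16w would pass too. The medians of the members tested were -0.84 (8w), -1.44 (16w) and -0.45 (HFD), against 0.02, 0.01 and 0.04 over all genes. C1q chains, read as background below, are part of these counts and medians, and the 16w median was the value of C1qa. Higher by 2-fold or more were the 3 C1q chains in 8w db/db, 0 members at 16w and C1qb in HFD, beside 2.61%, 8.81% and 6.41% of all genes. The C1q levels in stroma, 5.0 to 74.0 CPM for C1qa, lay near those of endothelial cells, 59.9 CPM at 8w, 8.26 at 16w and 44.0 in HFD, and are read as background. The endothelial level at 8w rested on 3 UMIs in 30 cells (12.3 to 175 CPM). WT had no endothelial cell in this gate, so its stromal C1qa, 30.6 CPM, had no such comparison. The stromal check markers were at 16897 CPM in WT, 13449 in HFD and, in db/db, 21769 at 8w and 22953 at 16w in these cells. Of other cell types, the macrophage list was at 80.0 CPM in WT, 469 in HFD and, in db/db, 465 at 8w and 80.7 at 16w, and hemoglobin genes were at 2.63 CPM in WT, 4.66 in HFD and, in db/db, 738 at 8w and 3182 at 16w; the part of either in the stromal ratios was not tested.

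**Figure D5:**
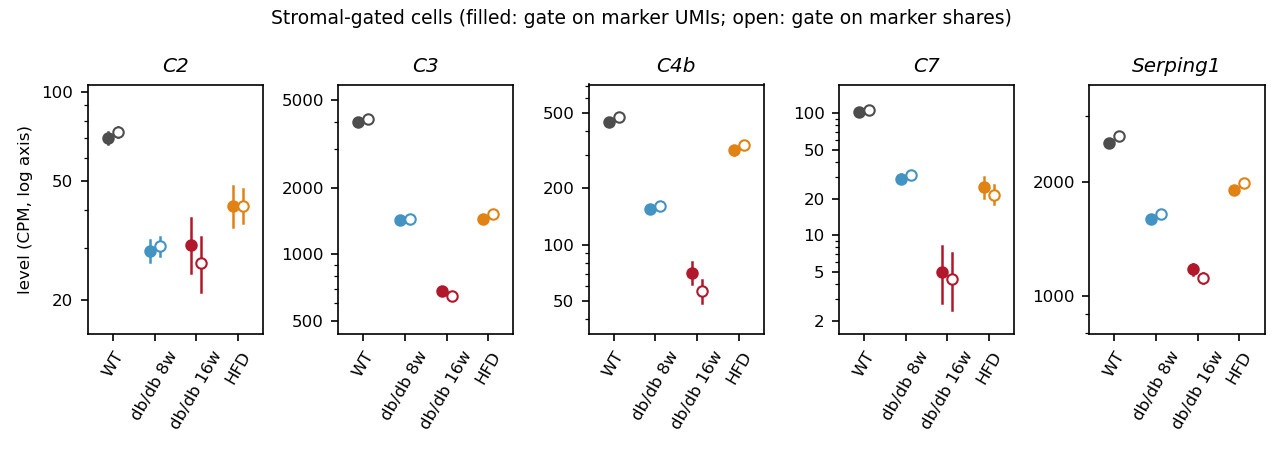
Levels in CPM (log axis, a scale for each gene) of C2, C3, C4b, C7 and Serping1 in stromal-gated cells of the 4 libraries; filled circles are the UMI gate, open circles the share gate, bars 95% Poisson intervals. All 5 genes are highest in WT; C3, C4b, C7 and Serping1 are lowest in 16w db/db, and C4b and Serping1 of HFD lie nearest to WT.

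Promoter sequence is shown for C3 and C7, the stromal members that were lower than WT by 2-fold or more in all 3 obese libraries. They are the 250 bases before the RefSeq start (GRCm38.p6), minus strand, 5′ to 3′, C3 at chr17:57228137-57228386 and C7 at chr15:5063774-5064023. Capitals mark matches, on either strand, to the motifs searched, those of C/EBP, STAT, PU.1 and interferon response factors, which act in inflammation and myeloid cells.

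C3: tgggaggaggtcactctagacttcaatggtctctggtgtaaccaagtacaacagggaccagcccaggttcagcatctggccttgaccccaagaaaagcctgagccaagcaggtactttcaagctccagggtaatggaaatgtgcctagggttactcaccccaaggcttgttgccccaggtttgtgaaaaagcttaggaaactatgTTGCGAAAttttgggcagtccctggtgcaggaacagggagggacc

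C7: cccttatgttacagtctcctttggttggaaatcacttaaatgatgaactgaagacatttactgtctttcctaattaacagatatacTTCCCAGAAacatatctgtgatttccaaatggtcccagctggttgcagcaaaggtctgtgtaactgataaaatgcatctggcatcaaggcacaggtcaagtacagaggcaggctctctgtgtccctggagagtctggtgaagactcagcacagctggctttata

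The C3 window held a match to TTGCNNAA, the C/EBP motif, 45 bases before the start, and the C7 window a match to TTCNNNGAA, the STAT motif, 164 bases before it. Such matches are common: 9.56% of 32851 promoters of the same length held the C/EBP letters and 7.02% the STAT letters. The PU.1 letters GAGGAAG (10.6% of promoters) and the interferon response motif (2.98%) were not found in either window.

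Stromal cells were split in turn by markers of progenitors (Pi16, Dpp4, Sema3c and Anxa3, the Pi16 side) and of committed preadipocytes (Col15a1, Col4a1 and Col4a2, the Col15a1 side). Within the UMI gate, cells of the Pi16 side numbered 761 in WT, 40 in HFD and, in db/db, 735 at 8w and 19 at 16w. Cells of the Col15a1 side numbered 109 in WT, 349 in HFD and, in db/db, 1258 at 8w and 706 at 16w. On the Pi16 side C3 was at 3205 CPM in WT, 1508 in HFD and, in db/db, 2183 at 8w and 338 at 16w. On the Col15a1 side it was at 2994 CPM in WT, 1363 in HFD and, in db/db, 589 at 8w and 683 at 16w. The sides were close in WT, at a log2 ratio of Pi16 over Col15a1 of 0.10 (0.03 to 0.17), and in HFD, at 0.15 (-0.06 to 0.34), but in db/db 8w the Pi16 side was higher, by 1.89 (1.82 to 1.96). Within the Col15a1 side the log2 ratio of C3 to WT was -1.14 (-1.23 to -1.05) in HFD and, in db/db, -2.35 (-2.44 to -2.26) at 8w and -2.13 (-2.23 to -2.03) at 16w, so that db/db 8w had no more C3 than db/db 16w there. Within the Pi16 side it was -0.55 (-0.60 to -0.51) in 8w db/db, -1.09 (-1.28 to -0.90) in HFD and, on 19 cells, -3.25 (-4.25 to -2.41) in 16w db/db. The lower stromal C3 was thus seen on both sides in all 3 obese libraries.

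C4b, C2 and C7 were instead higher on the Col15a1 side in WT. There C4b was at 1129 CPM (1047 to 1217) on that side and at 215 CPM (199 to 231) on the Pi16 side. In db/db 8w the levels were 156 and 119 CPM, in HFD 361 and 78.3 CPM. The log2 ratio of Pi16 over Col15a1 was -2.39 (-2.55 to -2.24) in WT, -0.40 (-0.61 to -0.19) in 8w db/db and -2.21 (-3.17 to -1.39) in HFD; in 16w db/db, with 2 UMIs on the Pi16 side, it was -0.07 (-3.13 to 1.81). On the Col15a1 side C2 was at 209 CPM in WT, 53.8 in HFD and, in db/db, 39.1 at 8w and 32.4 at 16w, and on the WT Pi16 side at 32.0 CPM. C7 was at 132 CPM in WT, 28.1 in HFD and, in db/db, 17.6 at 8w and 5.02 at 16w on the Col15a1 side, and at 51.8 CPM on the WT Pi16 side. Within the Col15a1 side the obese libraries lay below WT for all of these genes: the log2 ratios were -1.64 (HFD), -2.86 (8w) and -4.13 (16w) for C4b, -1.96 (HFD), -2.42 (8w) and -2.69 (16w) for C2 and -2.23 (HFD), -2.91 (8w) and -4.72 (16w) for C7. C2 and C4b lie on chromosome 17, 118721 bases apart. Serping1 differed little between the sides, from -0.14 to 0.30, and in HFD its ratio to WT was -0.13 (-0.23 to -0.04) on the Col15a1 side and 0.19 (0.03 to 0.35) on the Pi16 side.

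The share of stromal cells with a C3 transcript, thinned to 1000 UMIs, was 85.2% in WT, 62.1% in HFD and, in db/db, 51.8% at 8w and 42.6% at 16w. Without thinning it was 93.7% in WT, 83.0% in HFD and, in db/db, 59.4% at 8w and 61.7% at 16w. For C4b the thinned share was 25.7% in WT, 22% in HFD and, in db/db, 11.5% at 8w and 6.15% at 16w. For Serping1 the shares were 75.2% in WT, 77.5% in HFD and, in db/db, 65.3% at 8w and 69.5% at 16w. This order differed from that of the CPM, with HFD above WT and 16w above 8w. In HFD the lower Serping1 level was thus not matched by lower detection, and the cause was not tested. In endothelial cells, which should lack C3, it was detected in 4.55% of 8w db/db, 0.437% of 16w db/db and 1.39% of HFD cells. Over all cells of a library, C3 was at 3187 CPM in WT, 416 in HFD and, in db/db, 733 at 8w and 114 at 16w. C1qa over all cells was at 842 CPM in WT, 697 in HFD and, in db/db, 984 at 8w and 709 at 16w. C1qb over all cells was at 681 CPM in WT, 1039 in HFD and, in db/db, 1033 at 8w and 1176 at 16w, and C1qc at 460.0, 591, 641 and 739 CPM in the same order. C3 was lower and C1qb and C1qc higher than WT in all 3 obese libraries, whereas C1qa was higher at 8w only.

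The rest of the pathway was read from a list of 44 other complement genes in the same way. Of these, 22 reached 20 CPM in macrophages or stroma of any library, and the other 22, among them the liver proteins Mbl1, C8a, C8b, Cfi and C4bp, did not. In macrophages, 4 of 17 tested were 2-fold or more lower in 8w db/db than in WT, 10 of 17 in 16w db/db and 8 of 16 in HFD, beside 4.17%, 21.5% and 8.98% of all genes. Higher were 2, 3 and 3, beside 6.08%, 19.6% and 11.8%. In stroma, 3, 6 and 2 of 10 tested were lower, beside 1.36%, 9.79% and 5.16%, and 0 were higher, beside 2.61%, 8.81% and 6.41%. The 2 in HFD were C1rb and C1s2, near-identical copies of C1ra and C1s1, so their counts are uncertain. Summed over the copies, HFD stroma was at 258 CPM against 589 in WT for C1r, and at 752 against 686 for C1s. The levels that follow are of the UMI gate. Among pattern-binding starters, Fcna, ficolin A, was at 767 CPM in WT, 12.4 in HFD and, in db/db, 391 at 8w and 57.2 at 16w in macrophages, and the order was the same with the share gate. Colec12, a membrane collectin, was at 83.1 CPM in WT, 4.96 in HFD and, in db/db, 93.8 at 8w and 56.7 at 16w in macrophages and 79.3 to 157 CPM in stroma. By the share gate WT macrophages led, at 109.7 CPM against 89.1 at 8w. Cfp, properdin, which stabilises the alternative-pathway convertase, was at 799 CPM in WT, 212 in HFD and, in db/db, 319.6 at 8w and 149 at 16w. Cfb, the protease of that pathway, was at 185 CPM in WT, 4.65 in HFD and, in db/db, 35.5 at 8w and 2.32 at 16w in macrophages and 219 CPM in WT, 160.0 in HFD and, in db/db, 110.5 at 8w and 59.3 at 16w in stroma. Cfd (adipsin), which activates that protease, reached 28.8 CPM in WT macrophages and at most 2.79 in the obese ones, and the pore subunit C6 22.4 and at most 10.1 CPM.

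Receptors went both ways in macrophages. C5ar1, the main C5a receptor, was at 239.7 CPM in WT, 185 in HFD and, in db/db, 261 at 8w and 106 at 16w, and the second receptor C5ar2 at 22.4 CPM in WT, 40.3 in HFD and, in db/db, 25.9 at 8w and 2.80 at 16w. Both were lowest in db/db 16w. By the share gate, WT stood above db/db 8w, for C5ar1 at 306 against 249 CPM, a log2 ratio of -0.30 (-0.37 to -0.23), and for C5ar2 at 32.5 against 24.3 CPM, so the sign of these 8w differences depends on the gate. The β2 integrin chain Itgb2 was at 73.5 CPM in WT, 285 in HFD and, in db/db, 161 at 8w and 250.3 at 16w, and Itgax, its partner in complement receptor 4, at 0 CPM in WT, 151 in HFD and, in db/db, 37.6 at 8w and 49.1 at 16w. WT macrophages of the UMI gate held no Itgax UMI, and with the share gate Itgax was at 2.71 CPM in WT and 51.1 to 189 CPM in the obese libraries. Itgam, the partner in complement receptor 3, was at 185 CPM in WT, 225 in HFD and, in db/db, 242 at 8w and 188 at 16w, within 2-fold of WT in each library. Vsig4, a C3b receptor of resident macrophages, was at 16.0 CPM in WT, 2.48 in HFD and, in db/db, 24.0 at 8w and 17.1 at 16w. Cd93, a receptor-like protein once linked to C1q, was at 67.1 CPM in WT, 157 in HFD and, in db/db, 134 at 8w and 134 at 16w, below the 275 to 751 CPM of endothelial cells in the obese libraries. Cd59a, which blocks the pore, was at 6.39 CPM in WT, 9.92 in HFD and, in db/db, 7.09 at 8w and 33.2 at 16w in macrophages. With the share gate it was at 2.71 CPM in WT, 11.0 in HFD and, in db/db, 11.6 at 8w and 33.7 at 16w. WT and 8w were thus close with the UMI gate only. Endothelial cells of the obese libraries (UMI gate) held more Cd59a, 39.9 to 95.6 CPM. In stroma, the surface inhibitor Cd55 was at 316 CPM in WT, 243 in HFD and, in db/db, 364 at 8w and 36.7 at 16w, and Cr1l, a further inhibitor, was nearly level at 99.8 CPM in WT, 94.5 in HFD and, in db/db, 91.1 at 8w and 99.0 at 16w. Clu, clusterin, was at 9.84 to 26.9 CPM. The C1 proteases were stromal. C1ra was at 357 CPM in WT, 258 in HFD and, in db/db, 152 at 8w and 127 at 16w. C1s1 was at 455 CPM in WT, 751 in HFD and, in db/db, 274 at 8w and 337 at 16w. Their copies C1rb and C1s2 make both counts uncertain.

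The genes most like 4 of the members were found by Pearson correlation of log2(CPM + 10) over 15 values, the macrophage, stromal, endothelial and T cell gates of the 4 libraries (UMI gate) except the empty WT endothelial gate, among 10516 genes. Since values of 1 library share their depth and free RNA, the correlations are a description. C1qa was most like Mrc1 (0.977), Csf1r (0.971), Ccl6, Folr2 and Lyz2, of which Mrc1 and Csf1r were gate markers. C3 was most like Mmp2 (0.982), Dpt, Egfr, Igfbp6 and Gpx3. C3ar1 was most like Hpgds (0.993), Ms4a7, Cd300ld, Ptpro and Slc15a3. C4b, with its mixed source, had the lowest values, led by Rnase4 (0.943), Ecm1, Fgfr1, Ang and Calml4 (0.911).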

How the data were processed

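Single-cell libraries of brown adipose stromal vascular fraction, 1 per group, were read as deposited: raw UMI counts per gene and barcode before quality control, made by the authors with Cell Ranger (7.1.0 by the labels, 6.0.0 in the file headers) on mm10. Kept barcodes had more than 250 but fewer than 6000 genes, more than 500 but fewer than 30000 UMIs, and less than 15% mitochondrial counts, and doublets were not called. UMIs were summed over gated cells and given as CPM with exact Poisson, conditional binomial (ratios) or Clopper-Pearson (shares) intervals at 95%, which cover counting error only. The share gate needed 0.1% of UMIs over the own list (1% for stroma, 0.05% for T cells) with other lists at most at 0.05% (0.3% for stroma). Background shares used genes of at least 20 CPM and log2(CPM + 10). All 9 members were named, with other complement genes of at least 20 CPM in macrophages or stroma, except items not reported here. The members and lists were chosen with earlier results of these data known, and the share gate after the data were seen. Scripts were tested on simulated data and run in Python 3.11.15 with numpy 2.4.6, scipy 1.17.1, pandas 2.3.3 and matplotlib 3.10.9.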

Additional observations from a re-analysis of the deposited data

Results flagged for a closer look

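The C1q chains had log2 ratios to WT of opposite sign in stromal-gated cells of different libraries. C1qa was at 1.27 in db/db 8w and -2.61 in db/db 16w. C1qb was at 1.56 in HFD and, in db/db, 1.72 at 8w and -1.34 at 16w, and C1qc at 1.33, 1.59 and -1.21 in the same order. The difference was not tested, since each group was 1 library. The macrophage check markers in the same cells summed to 80.0 CPM in WT, 469 in HFD and, in db/db, 465 at 8w and 80.7 at 16w, and C1qa was in endothelial cells at 44.0 CPM in HFD and, in db/db, at 59.9 (8w, on 3 UMIs) and 8.26 (16w). With the share gate, C1qb and C1qc of db/db 16w stroma turned to 0.62 and 0.42.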

How the results depend on the processing

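The db/db libraries are given as 8w and 16w. The summed C1q ratio in macrophages and the summed stromal ratio of C3, C4b, C7 and Serping1 kept their sign in all 3 obese libraries under 8 alternatives. The C1q ratio, reported at -0.40, -1.27 and -0.69 (8w, 16w, HFD), was -0.33 at 8w with no quality filter, -0.76 in HFD with a mitochondrial limit of 10%, and -0.012, -0.72 and -0.071 with no marker UMI of another gate. It was -1.33 at 16w with 5 marker UMIs, -0.33 at 8w and -0.83 at 16w with cells thinned to 1000 UMIs, and -1.18 at 16w without mitochondrial and ribosomal genes. Without the deepest 10% of cells it was -1.14 at 16w and -0.81 in HFD, and with the share gate -0.57 at 8w and -0.89 in HFD. The stromal ratio, reported at -1.14, -1.87 and -0.93, was -1.73 at 16w and -1.24 in HFD with no quality filter, -1.11 at 8w and -1.92 at 16w with the 10% limit, -1.07 at 8w with no other marker UMI, and -0.89 in HFD with 5 marker UMIs. Thinned, it was -1.0, -1.36 and -0.70. Without mitochondrial and ribosomal genes it was -1.83 at 16w and -0.90 in HFD, without the deepest cells -1.10, -1.56 and -0.87, and with the share gate -1.15 at 8w and -2.00 at 16w. The share of genes past 2-fold at 8w macrophages was 9.79% higher and 7.64% lower with a pseudocount of 1 CPM. For stroma it was 1.71% higher and 0.832% lower at 8w and 3.27% lower in HFD with a 5 CPM minimum, and 2.25% lower at 8w with the 1 CPM pseudocount. Of single-gene ratios, 83 of 88 kept their sign with the share gate and 73 of 78 with no other marker UMI. With the share gate C1qb, C1qc and C3ar1 turned at 16w in stroma (0.62, 0.42 and 0.70), levels read as background, and C4b at 8w, in macrophages against WT (0.44 to -0.39) and against stroma (0.13 to -0.15). With no other marker UMI, Serping1 in HFD macrophages turned (0.48), as did C1qa and C1qc at 8w (0.15 and 0.0078), C1qc in HFD (0.039) and C3ar1 at 16w (0.063). C3ar1 at 8w (0.01) fell below 0 with the 10% limit, 5 marker UMIs or the deepest cells left out (lowest -0.079), and C1qa of HFD stroma (0.55) when thinned, to just below 0. The cause was not tested. No paired analysis was possible because each group is 1 library. Depth limits C7 at 16w stroma and C4b in HFD macrophages, where counts were lowest.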

Other observations

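C1rb and C1s2, close copies of the C1 protease genes C1ra and C1s1 beside them on chromosome 6, were nearly absent from the HFD library. Over all cells C1rb held 8341 of the C1ra and C1rb UMIs in WT against 12669 for C1ra, 4 against 2543 in HFD and, in db/db, 3021 against 4581 at 8w and 259 against 565 at 16w. C1s2 held 8046 UMIs against 16397 for C1s1 in WT, 8 against 7466 in HFD and, in db/db, 4021 against 8401 at 8w and 379 against 1485 at 16w. Near-identical copies can share reads, so the split within each pair is uncertain, and the cause was not tested. Summed over the copies, the stromal level of C1r was 589 CPM in WT, 258 in HFD and, in db/db, 253 at 8w and 185 at 16w, and that of C1s 686, 752, 405 and 419.7 CPM in the same order.

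Stromal cells with 2 or more UMIs of Has1, Ptx3 and Tnfaip6, genes of activated fibroblasts, were set against stromal cells with none. The log2 ratio of C3 between them was 0.16 (0.14 to 0.18) in WT, 0.29 (0.20 to 0.37) in HFD and, in db/db, 0.36 (0.32 to 0.40) at 8w and -0.87 (-1.11 to -0.65) at 16w. That of C4b was 0.21 (0.15 to 0.27), 0.38 (0.20 to 0.57), 0.38 (0.26 to 0.50) and -1.96 (-3.11 to -1.0) in the same order, the last on 9 UMIs in the activated cells. With the share gate the HFD values were 0.05 (-0.02 to 0.12) for C3 and 0.13 (-0.02 to 0.28) for C4b, within counting error of 0.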
